A study of Mus musculus with 2 samples.

Results

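The S100 genes measured here are 10 members of a family of small calcium-binding proteins: S100a1, S100a3, S100a4, S100a5, S100a6, S100a8, S100a9, S100a10, S100a11 and S100a13. They were taken by name and matched to the deposited gene identifiers, and are 10 of 43346 annotated genes. Total RNA of granulocyte-monocyte progenitors (GMP), the marrow precursors of neutrophils and monocytes, was sequenced after depletion of ribosomal RNA. They were primary, taken from male mice of the C57BL/6J strain, 5 to 6 weeks old, with no treatment named, and each library was made from 100 ng of RNA. The series holds 1 group of 2 libraries, labelled as biological replicates and tied to the same donor record, so the spread between them may be partly technical. With no second group, nothing was tested and no p-value is given. The results are levels, their spread over the 2 libraries, and what the genes share in sequence and position.

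Most S100 proteins bind calcium through paired EF-hand loops, change shape when they do, and then hold on to target proteins, mostly as dimers. S100A8 and S100A9 pair to form calprotectin, the most abundant cytosolic protein complex of mature neutrophils, which also binds zinc and manganese and is released as an alarm signal in inflammation. S100A10 pairs with annexin A2 at membranes, S100A11 with annexin A1, and S100A4 with non-muscle myosin.

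An EF-hand loop is shown first, for 5 of the expressed genes. Such loops are not particular to the S100 family. Coding sequences of the leading transcripts were taken from GENCODE M21. The PROSITE EF-hand pattern matched 6 of the 10, against 0.964% of 20025 leading coding sequences of nuclear protein-coding genes. A looser form, chosen after that result was seen, asks for Asp at loop position 1, Asp, Asn or Ser at 3, Asp, Asn, Ser, Thr or Gly at 5, and Glu at 12. It matched 9 of the 10, against 9.75% of all. S100a10, an expressed member, matched neither form, so no loop is given for it. The lines below give the 36 coding bases of the loop, 5′ to 3′, with the codons of loop positions 1, 3, 5 and 12 in capitals.
S100a8: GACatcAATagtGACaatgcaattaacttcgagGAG
S100a9: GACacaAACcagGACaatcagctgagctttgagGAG
S100a1: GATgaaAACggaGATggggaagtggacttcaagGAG
S100a11: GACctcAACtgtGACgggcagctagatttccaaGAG
S100a13: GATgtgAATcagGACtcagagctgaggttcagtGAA
The capitals spell Asp, Asn, Asp and Glu in each of these lines, while the bases between them vary. The looser form, by which the loops were found, required Asp at 1 and Glu at 12. Only the residues at 3 and 5 could differ between the lines, and only among those the form allows. Over all 45 pairs of members, identity of the aligned coding bases ran from 56.4% to 73.2% with a median of 64.3%, and the S100a8 and S100a9 pair was at 64.8%. Gapped positions were left out of this identity. The highest pair was S100a4 and S100a13, and S100a13 has the longest coding sequence of the members, at 480 bases. The identity that unrelated sequences would reach was not computed. Gene-level expected counts of the 8 members with reads were exact whole numbers in both libraries, so no fractional share of a read was assigned to them.

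S100a8 and S100a9 were by far the most abundant members, and 8 of the 10 genes reached 1 TPM (the level of transcripts, corrected for effective length and library size) in both libraries. Of all 21461 nuclear protein-coding genes, 40.8% did so. The 10 genes were chosen with earlier results of these data known, and 6 other S100 genes listed below had 0 counts, as did S100a2. The share of members at 1 TPM therefore does not describe the whole family. S100a3 and S100a5 had 0 counts in both libraries. Summed over the members, deposited TPM was 529.7 in replicate 1 and 867.7 in replicate 2, of which S100a8 and S100a9 together held 80.2% and 84.3%. Of the TPM of nuclear protein-coding genes, the family made up 0.278% and 0.380%, in the same order. Those genes held 19.1% and 22.8% of all deposited TPM, so a level is lower on deposited TPM than on TPM rescaled to those genes alone. In a sorted population such levels cannot tell fewer expressing cells from less RNA per cell. Ordered by mean TPM the genes ran S100a8, S100a9, S100a10, S100a1, S100a11, S100a13, S100a4 and S100a6. Each gene's lower library lay above the higher library of the next gene in that order, on TPM as deposited and on rescaled TPM. The closest neighbours were S100a11 and S100a13 in replicate 2, at 18.3 and 18.1 TPM. Their deposited credibility intervals in that library, 16.7 to 19.6 TPM and 16.8 to 19.0 TPM, overlapped, so these 2 are not separated there. In replicate 1 the intervals, 17.8 to 20.3 TPM for S100a11 and 13.4 to 15.1 TPM for S100a13, did not overlap. Per base of full length S100a11 had 1.81 and 1.19 counts and S100a13 had 1.56 and 1.42, so their order turned in replicate 2, as it did in both libraries on CPM, which does not correct for length.

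**Figure D1:**
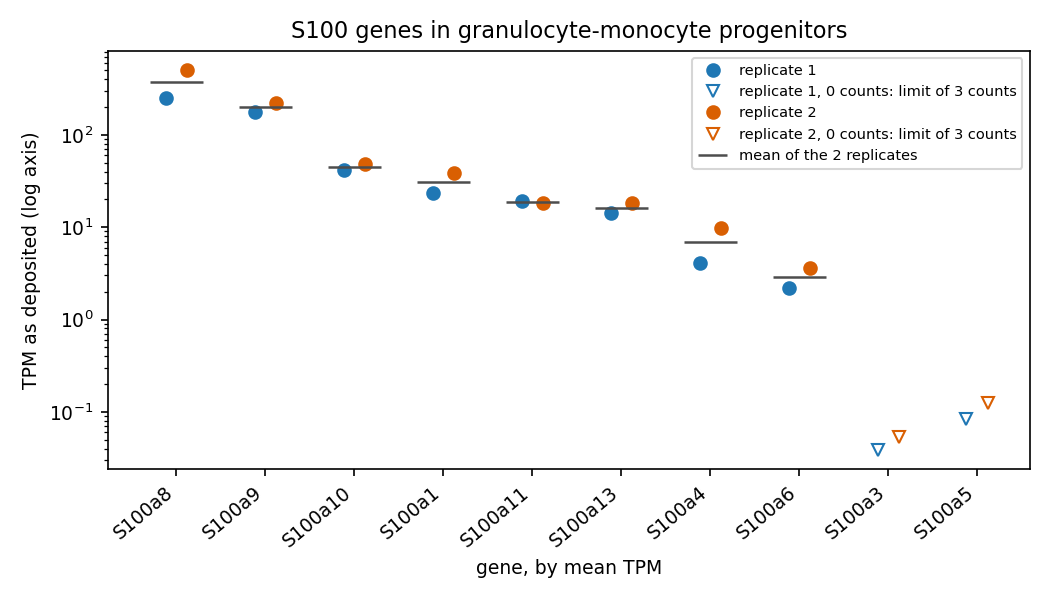
Level of each S100 gene in TPM as deposited, on a log axis, with 1 point for each of the 2 replicates and a line at their mean. Filled points run from 508 TPM for S100a8 in replicate 2 to 2.20 TPM for S100a6 in replicate 1. Open triangles mark S100a3 and S100a5, which had 0 counts, at the level that 3 counts would give.

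S100a8 was the highest member and the one with the widest absolute spread. Replicate 1 had 249 TPM and replicate 2 had 508 TPM, a mean of 378 TPM ± 183 (SD, n = 2). In rank it was 135th of the nuclear protein-coding genes in replicate 1 and 63rd in replicate 2. S100a9, which encodes its partner, was at 176 and 224 TPM, a mean of 199.9 TPM ± 33.96, and ranked 175th and 172nd. S100a9 thus held nearly the same rank in both libraries, while S100a8 ranked higher in replicate 2. On rescaled TPM, in which RNA classes other than nuclear protein-coding genes are left out of the total, S100a8 was at 1305 in replicate 1 and 2224 in replicate 2, and S100a9 at 923 and 980.4. The S100a8 level was 1.41 times that of S100a9 in replicate 1 and 2.27 times in replicate 2, a log2 difference of 0.50 and 1.18 (mean 0.84 ± 0.48, SD, n = 2).

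The size of the S100a8 excess depended on how length was counted. The S100a8 transcript of the deposited tables is 392 nt long, and its effective length, the number of places where a fragment can start, came to 215 nt and 180.3 nt in replicates 1 and 2. For S100a9 the effective lengths were 336 and 300.2 nt. Expected counts themselves were 7716 and 10233 for S100a8, against 8507 and 7513 for S100a9, so by counts S100a9 was ahead in replicate 1. Counts per base of full length gave ratios of S100a8 to S100a9 of 1.19 in replicate 1 and 1.78 in replicate 2. These values rest on the deposited length of S100a8. GENCODE M21 makes its transcript 486 nt, 94 more, and with that length the ratios of counts per base were 0.956 and 1.43. Reads from the added bases may be missing from the counts, so which length fits was not tested. On each of these scales the ratio of S100a8 to S100a9 was higher in replicate 2, while which gene was ahead in replicate 1 depended on the scale. Counts and counts per base of either full length share the same change between libraries by construction, because the lengths do not differ between libraries.

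**Figure D2:**
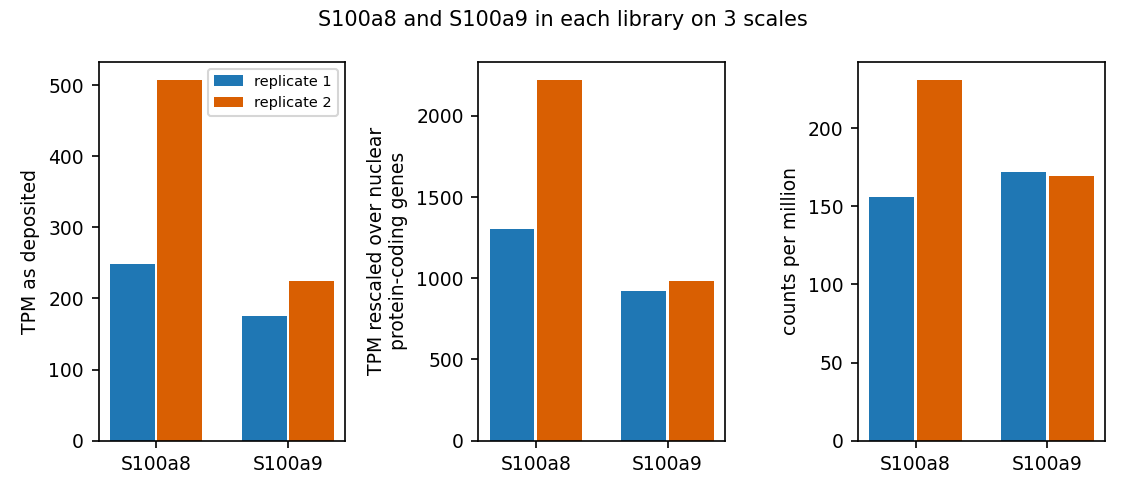
S100a8 and S100a9 in replicate 1 (blue) and replicate 2 (orange) as deposited TPM, as TPM rescaled over nuclear protein-coding genes, and as CPM, counts scaled to the library total. S100a9 changes little between libraries on rescaled TPM and CPM, while S100a8 is higher in replicate 2 on all 3 scales, at 156 and 231 CPM.

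Both genes lie on chromosome 3 of mm10 and are transcribed towards each other. S100a8 is on the plus strand at 90668978 to 90670035 and S100a9 on the minus strand at 90692632 to 90695721, with 22596 bases between them. Each has 3 exons, of which 2 are coding, as do all members except S100a13 with 4 and 3. S100a8 had 1 transcript in the deposited tables. S100a9 had 2, and the longer one held 9.39% of the gene's TPM in replicate 1 and 18.9% in replicate 2. The 2 transcripts have the same coding sequence of 339 bases. They differ in noncoding bases only: the first exon of the longer one starts 10 bases further upstream, and its second exon begins 3 bases later. Counts were divided between them by the estimator, 7693.5 and 813.5 in replicate 1, so the split is less certain than the gene's total.

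Sequence just upstream of these 2 genes is shown because they were the most abundant members. It comes from RefSeq promoter windows of build GRCm38.p6, 250 bases before and 50 after each start, which were matched for 9 of the 10 members. Capitals mark 3 motifs: TTGCNNAA, of the kind C/EBP factors bind, and GAGGAAGT, of the kind PU.1 binds, each searched on both strands, and TATAAA on the coding strand. C/EBP factors and PU.1 are the main activators of myeloid genes. The first S100a8 line is chr3:90668821-90668977 and the second chr3:90669029-90669058, both on the plus strand. The S100a9 line is chr3:90695722-90695971 on the minus strand.
S100a8 upstream: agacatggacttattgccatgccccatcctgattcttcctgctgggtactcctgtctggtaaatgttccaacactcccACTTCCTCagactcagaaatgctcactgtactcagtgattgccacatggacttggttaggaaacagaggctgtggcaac
S100a8 near the start: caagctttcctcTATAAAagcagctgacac
S100a9 upstream: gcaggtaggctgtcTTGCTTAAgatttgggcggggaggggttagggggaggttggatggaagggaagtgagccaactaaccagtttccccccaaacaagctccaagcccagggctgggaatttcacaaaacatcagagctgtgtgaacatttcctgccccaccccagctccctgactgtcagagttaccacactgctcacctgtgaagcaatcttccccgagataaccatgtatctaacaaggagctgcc
The TATAAA of S100a8 begins at -30 from the RefSeq start, and the PU.1-type match at -172 is on the opposite strand. The C/EBP-type match of S100a9 begins at -236. Of 32851 promoter windows, 10.8% held the C/EBP-type letters, 3.20% the PU.1-type letters and 8.32% TATAAA. Among the 9 members, S100a9 held the first, S100a4 and S100a8 the second, and S100a3, S100a4, S100a8 and S100a9 the third. TATAAA began at -52 in S100a3 and -31 in S100a4, but at 1, the RefSeq start itself, in S100a9, outside the line printed. That is also the start of the longer S100a9 transcript. The leading S100a9 transcript starts 10 bases further downstream, after this TATAAA. GENCODE M21 starts S100a8 further upstream than RefSeq, so the stretch with TATAAA lies inside its first exon there. A match is a description of letters and not evidence of binding.

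S100a10 and S100a11, the partners of annexins, were next by role. The 2 libraries gave 41.7 and 47.8 TPM for S100a10, a mean of 44.8 TPM ± 4.33 (SD, n = 2), with 3047 and 2521 counts. On rescaled TPM it was nearly level, at 219 and 209. S100a11 was at 19.2 and 18.3 TPM (18.8 ± 0.67), but at 101 and 80.1 on rescaled TPM, and at 18.7 and 13.8 CPM. Its libraries were close on deposited TPM and further apart on the other scales. Anxa2, whose product binds S100A10, was at 21.1 TPM ± 2.29, below S100a10 in both libraries. Anxa1, whose product binds S100A11, was at 119 TPM ± 17.0, above S100a11 in both. S100a10 was read almost wholly as 1 of its 3 transcripts, with 98.9% and 100% of its TPM.

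S100a1 and S100a13 lie head to head on opposite strands, and both were expressed. S100a1, best known from heart and skeletal muscle, had 23.4 and 38.2 TPM, a mean of 30.8 TPM ± 10.5 (SD, n = 2). S100a13, which takes part in the release of proteins that lack a signal peptide, was at 14.4 and 18.1 TPM, a mean of 16.3 TPM ± 2.62. S100a1 was higher in replicate 2 on CPM as well, at 34.02 and 44.6, while S100a13 was at 22.6 and 22.95. The pair thus differed between libraries in 1 gene and little in the other. Their GENCODE starts are 42 bases apart, with S100a1 at 90511034 to 90514392 on the minus strand and S100a13 at 90514435 to 90524581 on the plus strand. The bases between them, on the plus strand at chr3:90514393-90514434, are shown because both genes are transcribed away from them.
Between S100a1 and S100a13: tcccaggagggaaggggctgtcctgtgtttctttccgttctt
This stretch holds none of the 3 motifs.

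S100a4 and S100a6, the lowest of the expressed members, had few reads. S100a4, which binds non-muscle myosin and is linked to cell movement, had 4.13 and 9.83 TPM (6.98 ± 4.03, SD, n = 2), from 191 and 313 counts. S100a6, or calcyclin, was at 2.20 and 3.57 TPM (2.88 ± 0.97), from 172 and 202 counts. Myh9, encoding the myosin that S100A4 binds, was far higher at 56.0 TPM ± 5.63, and Cacybp, encoding the calcyclin-binding protein, was at 66.6 TPM ± 13.9. S100a3, known from hair, and S100a5, known from olfactory neurons, had no counts. By counting error alone, 0 counts allow up to 3 counts. For S100a3 this is 0.0389 and 0.0538 TPM, and for S100a5 0.0834 and 0.125 TPM. The deposited credibility intervals end at 0.0388 and 0.0532 TPM for S100a3, but higher than that limit for S100a5, at 0.132 and 0.197 TPM.

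The 2 members without counts, S100a3 and S100a5, lie in the same gene cluster as most expressed ones. From S100a1 to S100a9 the gene cluster spans 185 kb, from 90511034 to 90695721 of chromosome 3. It holds 12 measured protein-coding genes, all of the S100 family, of which 6 reached 1 TPM in both libraries. Over all nuclear protein-coding genes 40.8% did so, and 8635 of 21461 had 0 counts in both. The 6 that reached it are among the 10 genes chosen with earlier results of these data known. The other 6 had 0 counts in both: S100a3, S100a5, and S100a2, S100a7a, S100a14 and S100a16, which are not among the 10. S100a5 lies between S100a4, 2477 bases away, and S100a6, 1101 bases away, both of which had reads. Among protein-coding genes, S100a3 lies between S100a16, which had 0 counts, and S100a4, 1068 bases away. It overlaps S100a2, also without counts. S100a11 and S100a10 lie apart, at 93520488 to 93526287 and 93555080 to 93564643. The interval of 2.82 Mb between S100a9 and S100a11 holds genes of the outer skin layer. Of its 60 measured protein-coding genes, 58 had 0 counts throughout and 0 reached 1 TPM. The 2 with counts were Gm9774, at 0.26 and 0.27 TPM, and Tchh, encoding trichohyalin, at 0.02 and 0.10 TPM. The processed pseudogene Gm4202 was the only gene of another class in the interval to reach 1 TPM in both, at 10.4 and 11.9 TPM. Its counts were fractional, so some of its reads were shared with other features. Just outside, next to S100a1, Chtop, a chromatin-associated protein gene, was at 20.96 and 21.9 TPM.

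**Figure D3:**
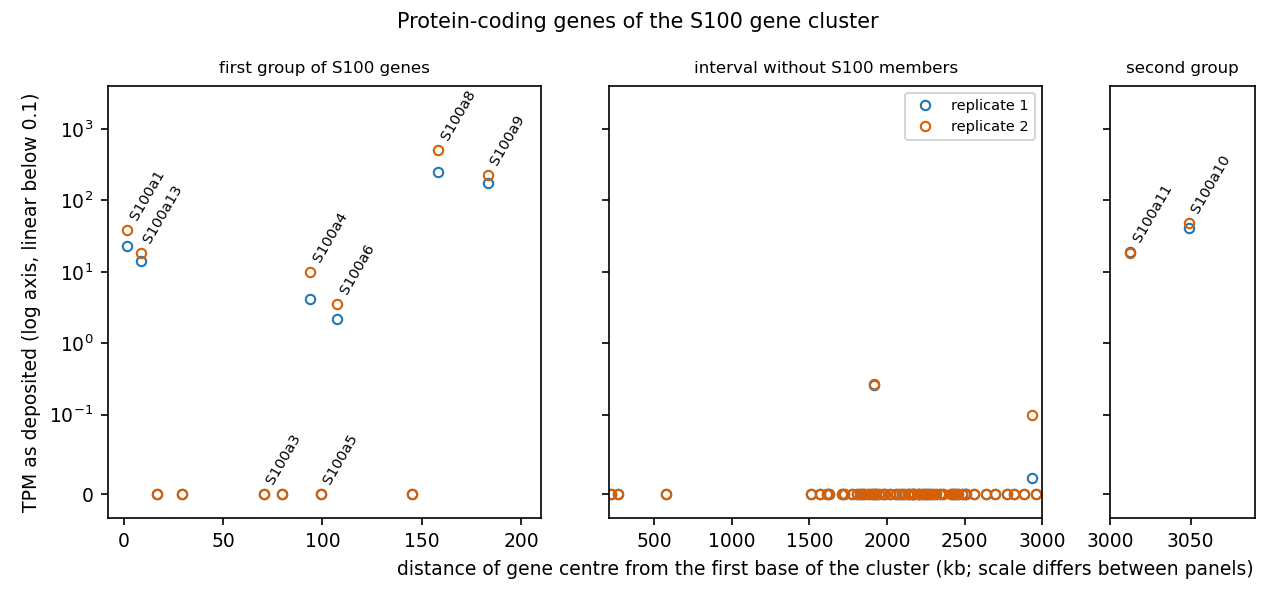
Protein-coding genes of the S100 cluster by distance of the gene centre from its first base in kb, with TPM as deposited on a log axis that is linear below 0.1. The left panel holds 8 members, the middle panel the interval in which no protein-coding gene reached 1 TPM, and the right panel S100a11 and S100a10. The distance scale differs between panels.

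On TMM-scaled log2 CPM no member was more than 2-fold apart between the libraries, where 6.78% of 11143 nuclear protein-coding genes were. By direction, 3.35% were higher and 3.44% lower in replicate 2. It is a ratio of single libraries, without a replicate check. Of the 8 members with a ratio, 4 were higher and 4 lower in replicate 2. S100a4 was furthest apart, at 0.82 on the log2 scale (1.77-fold higher in replicate 2), with a 95% counting interval from 0.57 to 1.10. It was the 1 member past 1.5-fold, which 16.7% of those genes also were (7.75% higher, 8.95% lower). S100a8 was at 0.52 (0.48 to 0.57), and S100a1 and S100a6 were each at 0.35. S100a11 was at -0.49 (-0.64 to -0.34), the lowest. S100a10, S100a9 and S100a13 were at -0.16, -0.06 and -0.02. On deposited TPM the median log2 ratio over the same genes was 0.26. Nuclear protein-coding genes held 19.1% of deposited TPM in replicate 1 and 22.8% in replicate 2. There 2 of the 8 members were past 2-fold, S100a4 at 2.38-fold and S100a8 at 2.04-fold higher in replicate 2, as were 7.25% of all in that direction. The counting intervals cover counting error only.

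The members are short, and the libraries differ in effective length. The labels give a size range up to 712 for replicate 1 and up to 1000 for replicate 2, without a unit. For S100a8 it was 54.9% of full length in replicate 1 and 46.0% in replicate 2. For S100a6, the longest expressed member, it was 75.4% and 70.3%. TPM divides counts by this length, and CPM does not. S100a8 was 2.04-fold higher in replicate 2 on deposited TPM, 1.70-fold on rescaled TPM and 1.44-fold on CPM. Among the 428 nuclear protein-coding genes of 350 to 750 nt in their leading transcript that averaged 10 CPM or more, the median log2 ratio was -0.10, with 80% between -0.61 and 0.36. Of those genes, 94.6% lay below S100a8 and 15.7% below S100a11. The ratio also moved with GC content. Its median was 0.16 in the lowest quintile of genes by GC and -0.16 in the highest. S100a8 at 44.9% GC and S100a9 at 45.7% fall in a quintile whose median was 0.08. The part of length and GC in the ratio of any member was not tested.

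**Figure D4:**
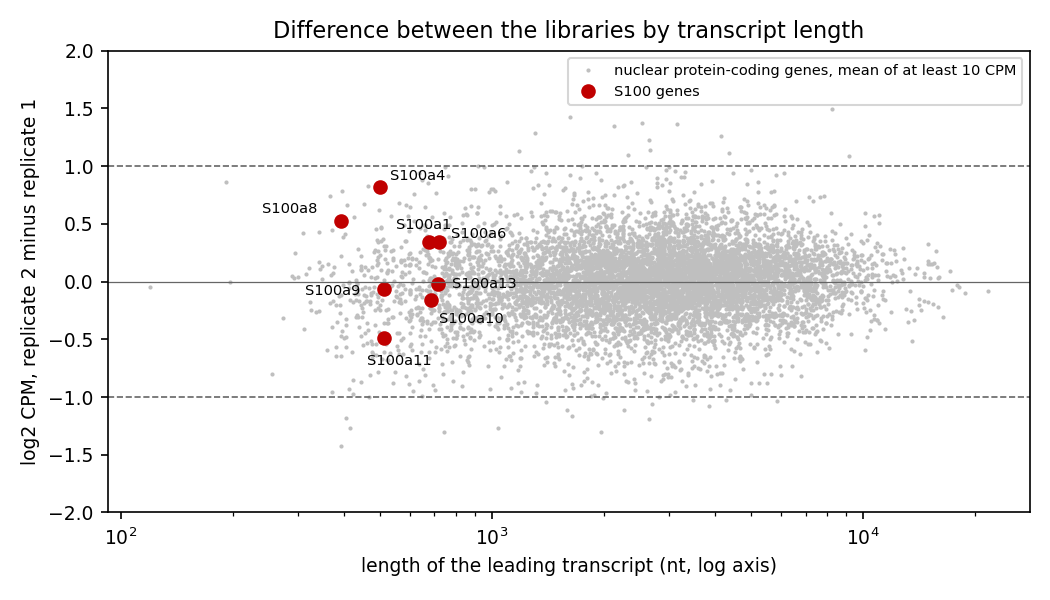
Difference in log2 CPM between replicate 2 and replicate 1 against the length of the leading transcript in nt, on a log axis. Grey points are 7698 nuclear protein-coding genes averaging 10 CPM or more, of which 3 lie outside the axis, and red points are the 8 S100 genes with counts. Dashed lines mark 2-fold, and all red points lie between them.

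Genes around the S100 proteins were taken as lists, each described by its counts beside 40.8% for all nuclear protein-coding genes. Of 6 other S100 genes (S100a7a, S100a14, S100a16, S100b, S100g and S100z), all had 0 counts in both libraries. S100pbp, which encodes a protein that binds S100P, was at 3.52 TPM ± 0.099 (SD, n = 2). Of the 7 fused S100 genes of skin, which include the filaggrin genes, 0 reached 1 TPM. Among annexins, 8 of 12 reached 1 TPM in both libraries, led by Anxa1, Anxa3 at 54.7 TPM ± 13.2, and Anxa2. Of 10 genes of binding partners, 3 are annexins already counted, and the other 7 all reached 1 TPM in both, led by Tpt1, a calcium-binding growth-related protein gene, at 195 TPM ± 39.5. Other EF-hand genes were at 14 of 14, among them the calmodulin genes Calm2 at 376 TPM ± 63.3 and Calm3 at 99.6 TPM ± 13.4. Calm2 was thus close to S100a8 in level, above it at 332 TPM in replicate 1 and below it at 421 TPM in replicate 2.

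Receptors through which extracellular S100A8 and S100A9 act, with their signalling genes, were present at uneven levels, with 6 of 10 list members at 1 TPM or more in both libraries. Emb, encoding embigin, was highest at 182 TPM ± 31.9 (SD, n = 2), and Bsg, encoding basigin, was at 66.7 TPM ± 1.80. Cd69 was at 31.2 TPM ± 9.38. Tlr4, the Toll-like receptor for calprotectin, was at 2.50 and 4.65 TPM, while its co-receptor gene Ly96 had 1 count in replicate 1 and 36 in replicate 2. Ager, the receptor for advanced glycation end products, was below 1 TPM in both, at 0.39 and 0.30. Of 10 transcription factors linked to S100a8 and S100a9, 8 reached 1 TPM in both, led by Spi1, encoding PU.1, at 27.1 TPM ± 0.44, Cebpd at 17.7 TPM ± 0.87 and Hif1a at 16.5 TPM ± 3.98.

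Markers of the labelled cells and of other cells stood as follows. The 4 GMP surface genes Kit, Cd34, Fcgr3 and Fcgr2b all reached 1 TPM in both libraries, as did 40.8% of nuclear protein-coding genes. The lowest of their values was 20.4 TPM, for Kit in replicate 1. S100a8 and S100a9 are also genes of mature neutrophils and monocytes, so those lists are given beside them. Of 14 late neutrophil genes 11 reached 1 TPM in both libraries, and their summed TPM was 159 in replicate 1 and 169.8 in replicate 2. Their median log2 CPM ratio was -0.12, with 6 of 14 higher and 8 lower in replicate 2. Over the 11143 nuclear protein-coding genes the median was -0.00, with 5553 higher and 5590 lower. Ngp and Camp, which encode granule proteins, led with 53.1 TPM ± 7.52 (SD, n = 2) and 39.5 TPM ± 9.81. Their ratios were -0.01 for Ngp and -0.89 for Camp. Mmp25 was at 0.15 TPM in both libraries and Ly6g at 0.97 and 0.76 TPM. Il1b, at 0.89 and 0.13 TPM from 103 and 16 counts, was the furthest apart in the list, with a ratio of -2.44. Of 10 monocyte and macrophage genes 7 reached 1 TPM in both, with summed TPM of 552 and 818, of which Ly6c2 alone held 380 and 600 TPM. Their median ratio was 0.14 over the 7 genes that have one, of which 5 were higher and 2 lower in replicate 2, and that of Ly6c2 was 0.34. The macrophage gene C1qa was at 0.44 and 0.02 TPM. The share of mature cells in S100a8 and S100a9 was not tested. Keratinocyte, lymphoid and erythroid lists had 0 genes at 1 TPM in both libraries. Of 10 stromal and endothelial genes, Pecam1, which blood cells also express, was the 1 that did, at 9.16 and 10.85 TPM.

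**Figure D5:**
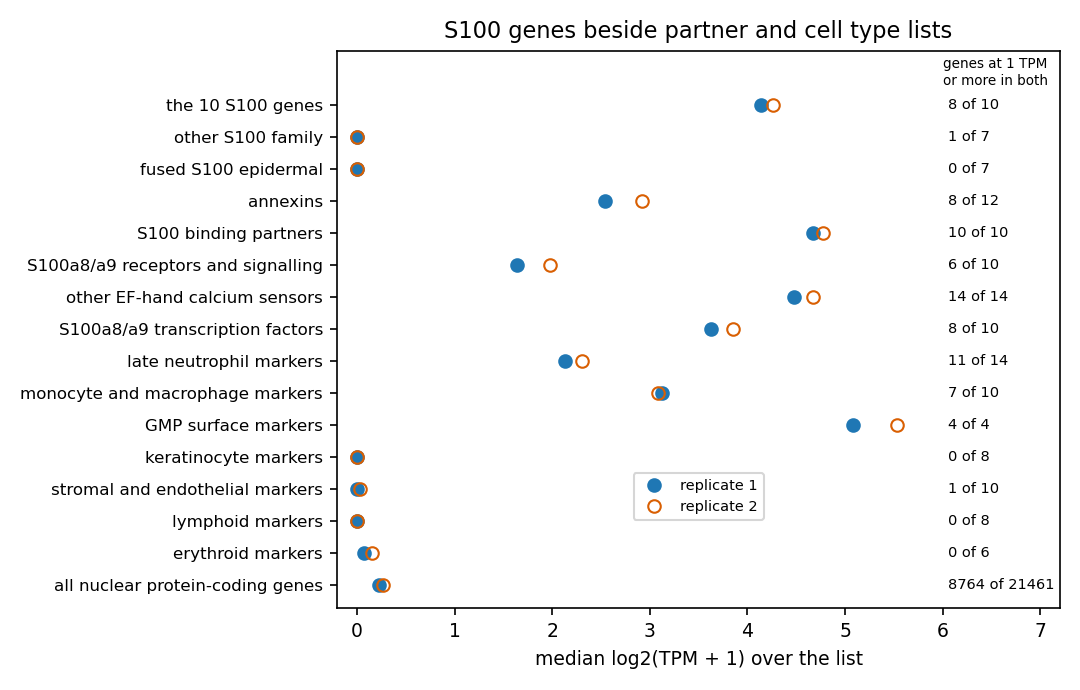
Median log2(TPM + 1) over each gene list in replicate 1 (filled) and replicate 2 (open), with the number of genes at 1 TPM or more in both libraries at the right. The 10 S100 genes were chosen with earlier results of these data known, so their medians do not describe the whole family. These are 4.14 and 4.26, against 0.23 and 0.26 over all nuclear protein-coding genes. The lists of GMP surface genes (5.08 and 5.54), binding partners (4.67 and 4.77) and other EF-hand genes (4.47 and 4.67) lie above them, and the other lists below.

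The nuclear protein-coding genes nearest to S100a9 in log2(TPM + 1) over the 2 libraries were Tcp1, Ncl and Eif5a, at distances of 0.03 to 0.04. Their levels in replicate 1 were 176, 180.3 and 175 TPM. For S100a8 the nearest were Rps21 at 0.21, Rps12-ps3 at 0.22 and Hsp90aa1 at 0.30. Rps21, a ribosomal protein gene of a kind with many near-identical pseudogene copies, was at 215 and 521 TPM. No nuclear protein-coding gene lay as close to S100a8 as the 3 nearest did to S100a9. Likeness over 2 libraries says only that the levels are alike.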

How the data were processed

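Total RNA-seq of 2 libraries of 1 group was used. The values refer to mm10 and GENCODE M4, per the deposited metadata. Which aligner and quantifier made them is not stated in labels or headers. The authors' deposited tables give expected counts per gene and transcript, TPM scaled over all features, FPKM, and each transcript's percent of its gene. Library totals were 49473841 and 44260902 expected counts. Names, classes and coordinates came from GENCODE M21 of that assembly through unversioned identifiers, which matched 42462 of 43346 genes. TPM was also rescaled over 21461 nuclear protein-coding genes. Expected counts were rounded and scaled by TMM, a trimmed mean of ratios (factors 0.985 and 1.02), in edgeR 4.0.16 under R 4.3.3, with filterByExpr and a prior count of 2. The ratio step was tested on simulated data. Leading transcripts are those of highest mean TPM. Coding sequences were aligned with Biopython 1.88. The counting interval of a ratio is the exact binomial one.

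The S100 genes and the 14 other lists were chosen with earlier results of these data known. Named are all members, up to 3 leading genes of a list, genes counted in small groups, neighbours in the cluster and the 3 genes nearest to S100a8 and S100a9. Beyond that rule, Myh9, Tlr4, Ly96, Ager, Mmp25, Ly6g, Il1b and C1qa were named after their values were seen. Alternatives were other minima, pseudocounts and prior counts, posterior means, FPKM, rescaled TPM, full length, DESeq2 1.42.0 size factors, no filter, and each library alone, with 2 added after seeing the data.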

Additional observations from a re-analysis of the deposited data

How the results depend on the processing

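The order of the 8 expressed members was the same on posterior mean TPM and FPKM, in each library alone on TPM, and on the mean of counts per base of full length. FPKM is proportional to TPM within a library, so it could not change an order that both libraries share. All 8 reached 1 TPM under each of the alternatives that apply, and 6 reached 5 TPM. The median over the 10 members, 17.5 TPM, was 84.0 on rescaled TPM and 47.5 as FPKM, which are other units, and ran from 16.8 to 18.2 with each library alone. The family's share of 0.329% of nuclear protein-coding TPM was 0.0599% of expected counts, because TPM divides by effective length and the transcripts are short. It ran from 0.278% to 0.380% with each library alone. The log2 difference of S100a8 and S100a9, 0.84, was 0.54 on full length and 0.23 on the full length of GENCODE M21, and ran from 0.50 to 1.18 with each library alone. The number of members past 2-fold stayed at 0 with DESeq2 size factors, no filter, another prior count and rescaled TPM, but was 2 on deposited TPM and 1 at 1.5-fold. The GENCODE M21 length and the deposited TPM ratio were added after seeing the data. With rescaled TPM, 6 of 8 members were higher in replicate 2 in place of 4, as S100a9 and S100a13 changed sign near 0. S100a3 and S100a5 have no ratio. No paired analysis was possible because there is 1 group. With 2 libraries, precision is limited by their number, and for S100a4 and S100a6 also by counts near 200.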
